A study of Rattus norvegicus with 45 samples.

Results

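Cytochromes P450 are heme enzymes of the endoplasmic reticulum and mitochondria that insert 1 atom of oxygen into drugs, fatty acids, sterols, steroids and vitamins. Electrons reach most of them from NADPH through cytochrome P450 oxidoreductase (Por). Liver holds more of them than other organs, mostly in hepatocytes, and their genes are controlled by nuclear receptors that sense foreign chemicals, fatty acids, sterols and retinoids, by insulin and fasting, and in rats by the sex-dependent rhythm of growth hormone.

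The genes described here were the P450 genes whose symbol begins with Cyp and a digit, without the 7 best known for oxidising acetaminophen or for making bile acids (Cyp2e1, Cyp1a2, Cyp2c11, Cyp7a1, Cyp7b1, Cyp8b1 and Cyp27a1). This left 43 of the 50 P450 genes, among 13877 genes measured. They were measured in livers of male Sprague-Dawley rats, 5 weeks old and fasted for 16 h before dosing, on 1 Affymetrix expression array per animal. Acetaminophen (APAP, an analgesic that injures the centre of the liver lobule at high dose) was given by mouth once at 1000 mg/kg in a vehicle of 1% hydroxyethylcellulose, and livers were taken at 3, 6, 9 or 24 h. Vehicle alone was given to the control animals of each time, and a baseline group was killed at 0 h after the fast with no dose. Each of the 9 groups held 5 animals. The study's text states that food was given back after the fast, so the vehicle groups differ from baseline in time, gavage and feeding together.

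Values are log2 intensities (robust multi-array average, RMA), so differences between groups are log2 fold changes. A gene was called where limma gave an adjusted p under 0.05 over all 13877 genes and the difference was at least 1.5-fold. Intensities of different probe sets cannot be set against each other as amounts, so each gene is compared only with itself. Genes of the Cyp2a, Cyp2b, Cyp2c, Cyp2d, Cyp3a, Cyp4a and Cyp4f clusters resemble each other in sequence, and probes may share signal within a cluster. In whole liver, fewer cells of a type and less RNA per cell cannot be told apart.

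The arrays were alike within groups, with correlations across genes from 0.983 (APAP 24 h) to 0.996, and 0 pairs were identical. The 8 hepatocyte markers had 0 calls in the 8 comparisons, and their mean per animal lay between 14.36 and 14.46 in the APAP groups, against 14.40 to 14.47 in the vehicle and baseline groups, close to the highest value of the table (15.07), where a change may be compressed. In those means the APAP animals were all below the vehicle animals at 3, 6 and 9 h. The mean of 4 neutrophil and monocyte markers lay between 5.23 and 6.72 in APAP 9 h livers, against 5.13 to 5.62 in vehicle 9 h livers, with 1 of 4 called. The mean of 3 erythroid markers lay between 9.74 and 11.61 in APAP 9 h livers, against 9.56 to 10.14 in vehicle 9 h livers, with 1 of 3 called. Other marker lists had at most 2 calls in a comparison with APAP, except stellate cell and fibroblast markers with 3 of 7 lower at 24 h. Their part in the P450 values was not tested.

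The promoters of 4 genes are shown as background, and no result below rests on them. They belong to a gene whose promoter carries a retinoid element, the sterol gene that moved in 7 comparisons, and a pair of neighbouring genes that moved together. Each runs from 250 bases before to 50 after the annotated start (RefSeq, build GRCr8), and 35 of the 43 genes had a promoter in that table. The 8 without one were Cyp17a1, Cyp19a1, Cyp1a1, Cyp2a2, Cyp2c6v1, Cyp4a1, Cyp4f4 and Cyp4v3, and their promoters were not searched. In Cyp26a1 (chr1:244883572-244883871, plus strand) the capitals mark the retinoic acid response element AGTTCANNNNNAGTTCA, read on the opposite strand. In Cyp51 (chr4:30991443-30991742, plus strand) they mark TGACGT, the core of a cyclic AMP response element. In Cyp4f1 (chr7:12672504-12672803, minus strand) and Cyp4f6 (chr7:12708329-12708628, minus strand) they mark the letters CCAAT, which in Cyp4f1 begin 94 bases before the start, and in Cyp4f6 are read on the opposite strand and begin at base 4 counted from the start as base 1, downstream of it.
Cyp26a1: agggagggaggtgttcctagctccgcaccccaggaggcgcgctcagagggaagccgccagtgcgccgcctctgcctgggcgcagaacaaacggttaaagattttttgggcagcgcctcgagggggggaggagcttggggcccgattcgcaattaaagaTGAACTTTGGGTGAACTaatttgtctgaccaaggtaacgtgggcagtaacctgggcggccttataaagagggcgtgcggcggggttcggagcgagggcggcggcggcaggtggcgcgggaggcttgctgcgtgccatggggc
Cyp51: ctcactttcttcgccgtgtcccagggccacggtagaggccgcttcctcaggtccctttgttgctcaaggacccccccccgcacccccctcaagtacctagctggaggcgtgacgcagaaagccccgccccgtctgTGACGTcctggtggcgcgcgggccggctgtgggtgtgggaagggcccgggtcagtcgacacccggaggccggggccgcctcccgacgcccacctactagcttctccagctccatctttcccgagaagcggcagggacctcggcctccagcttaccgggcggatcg
Cyp4f1: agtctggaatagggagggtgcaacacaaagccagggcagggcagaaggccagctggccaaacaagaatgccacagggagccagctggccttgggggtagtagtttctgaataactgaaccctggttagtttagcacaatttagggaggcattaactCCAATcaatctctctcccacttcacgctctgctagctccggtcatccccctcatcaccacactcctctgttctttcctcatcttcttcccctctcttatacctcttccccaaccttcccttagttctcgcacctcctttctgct
Cyp4f6: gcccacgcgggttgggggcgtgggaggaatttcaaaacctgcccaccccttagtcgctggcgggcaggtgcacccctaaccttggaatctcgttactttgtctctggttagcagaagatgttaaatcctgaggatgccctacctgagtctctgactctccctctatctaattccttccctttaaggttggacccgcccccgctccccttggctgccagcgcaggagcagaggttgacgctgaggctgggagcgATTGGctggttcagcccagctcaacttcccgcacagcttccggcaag
All motifs were searched on both strands, each in 1 spelling and only within these bases. Other spellings and more distant sites would be missed. The retinoid element began 92 bases before the start of Cyp26a1 and was in 3 of 33469 promoters (0.00896%). The spelling searched is the one that the Cyp26a1 promoter carries, so its presence there was fixed in advance. The low share counts that spelling only. TGACGT began 115 bases before the start of Cyp51 and was in 7.94% of promoters, but in no other P450 promoter here. CCAAT was in 37.5% of all promoters and in 15 of the 35 P450 promoters. The aryl hydrocarbon receptor motif TNGCGTG was in 4.89% of all promoters and in 1 of the 35 searched, that of Cyp26b1 (Cyp1a1 was not searched). The sterol regulatory motif TCACNCCAC (1.12% of promoters) and the fatty acid receptor motif AGGTCANAGGTCA (0.0538%) were in 0 of the 35 searched, which do not include Cyp4a1. The longest run of bases shared by the Cyp4f1 and Cyp4f6 promoters was 9. A match of letters is a description and not a tested site.

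APAP changed few of these genes at 3 h and more of them at 6 and 9 h than at 24 h, and most of the calls were decreases. At 3 h 2 of 43 were called, which is 4.65%, against 6.32% of all genes. There was 1 higher and 1 lower, against 3.34% and 2.98% of all genes, and 4 were called without vehicle 3 h replicate 5, which added Cyp1a1 and Cyp2f4. At 6 h 10 were called (23.3%), against 14.1% of all genes, with 2 higher and 8 lower, against 7.06% and 7.04%. At 9 h 11 were called (25.6%), against 17.1% of all genes, with 2 higher and 9 lower, against 8.65% and 8.47%. At 24 h 6 were called (14.0%), against 3.40% of all genes, with 0 higher and 6 lower, against 1.56% and 1.84%. The median log2 difference over the 43 was -0.05, -0.04, -0.19 and -0.06 at 3, 6, 9 and 24 h, against -0.02, -0.04, -0.03 and 0.01 over all genes. The median of the 43 was not computed under another normalization, and shifts of single genes there could be as large. With cyclic loess Cyp4a1 at 9 h went from 0.40 to 0.60, and the 9 h calls were 3 higher and 8 lower.

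Vehicle animals moved away from the fasted baseline in 14 of these genes, with calls in both directions. At 3 h 5 were called (11.6%), against 3.55% of all genes, with 3 higher and 2 lower, against 1.70% and 1.85%. At 6 h 9 were called (20.9%), against 5.02% of all genes, with 5 higher and 4 lower, against 2.70% and 2.33%. At 9 h 12 were called (27.9%), against 6.40% of all genes, with 6 higher and 6 lower, against 3.48% and 2.92%. At 24 h 11 were called (25.6%), against 6.55% of all genes, with 6 higher and 5 lower, against 3.62% and 2.93%. Each vehicle group serves both in its comparison with baseline and as the control of APAP, so values of the 2 comparisons are given side by side and no agreement between them is counted. In all, 15 of 43 genes (34.9%) were called in at least 1 APAP comparison, against 23.4% of all genes, and 14 (32.6%) in at least 1 vehicle comparison, against 10.4%.

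P450 genes are bright on these arrays, and bright genes of any kind were called more often. By mean over all arrays, 21 of the 43 were among the brightest 10% of all genes, 9 between these and the median, 7 between the median and the dimmest 25%, and 6 among the dimmest 25%. Among the brightest 10%, 42.9% of the P450 genes were called in an APAP comparison, against 45.6% of all 1388 genes there. For the vehicle comparisons the shares at that level were 47.6% of the P450 genes and 27.4% of all genes. Between the median and the brightest 10%, 5 of 9 P450 genes (55.6%) were called with APAP, against 34% of all genes, and 4 (44.4%) in vehicle, against 14.5%. Among the dimmest 25%, 1 of 6 P450 genes, Cyp26a1, was called with APAP, against 5.65% of all genes, and 0 in vehicle, against 1.82%. From there to the median 0 of 7 were called with APAP, against 15.4%, and 0 in vehicle, against 5.65%.

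**Figure D1:**
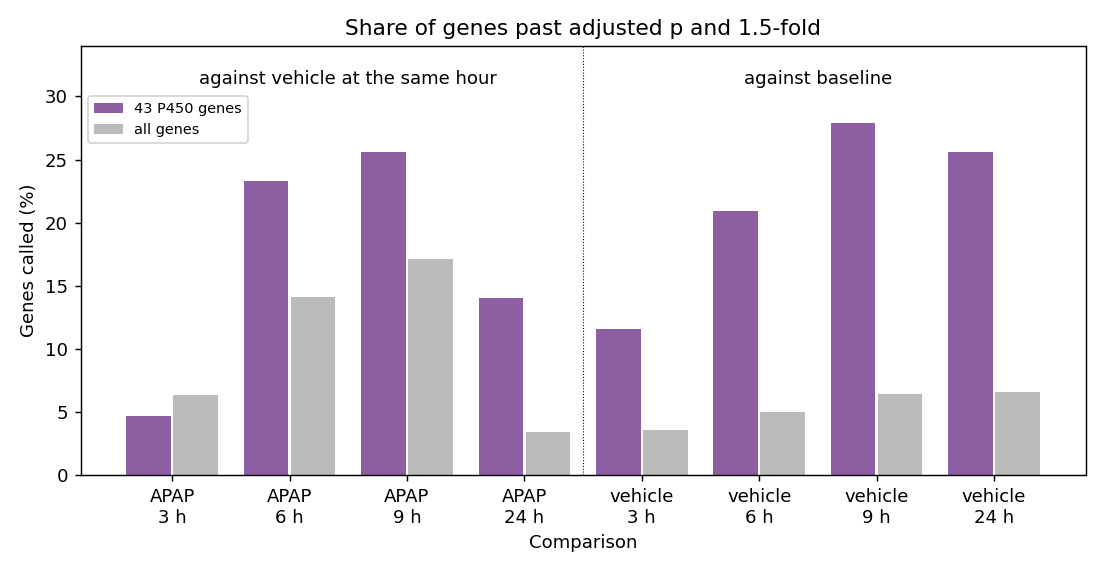
Percent of genes called (vertical axis) in 8 comparisons, for the 43 P450 genes (purple, left bar) and all 13877 genes (grey, right bar). The P450 share is below the share of all genes at APAP 3 h (4.65 against 6.32%) and above it in the other 7.

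In all, 19 of 43 genes were called in any of the 8 comparisons (44.2%, against 26.4% of all genes) and 24 in none (55.8%, against 73.6%). After APAP 0 of 43 were called at all 4 times, against 0.411% of all genes. Called at 3 of the 4 were Cyp4f1, Cyp51 and Cyp2c6v1, which is 6.98%, against 3.98% of all genes. A further 8 genes were called at 2 times (18.6%, against 8.32%) and 4 at 1 (9.3%, against 10.7%).

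**Figure D2:**
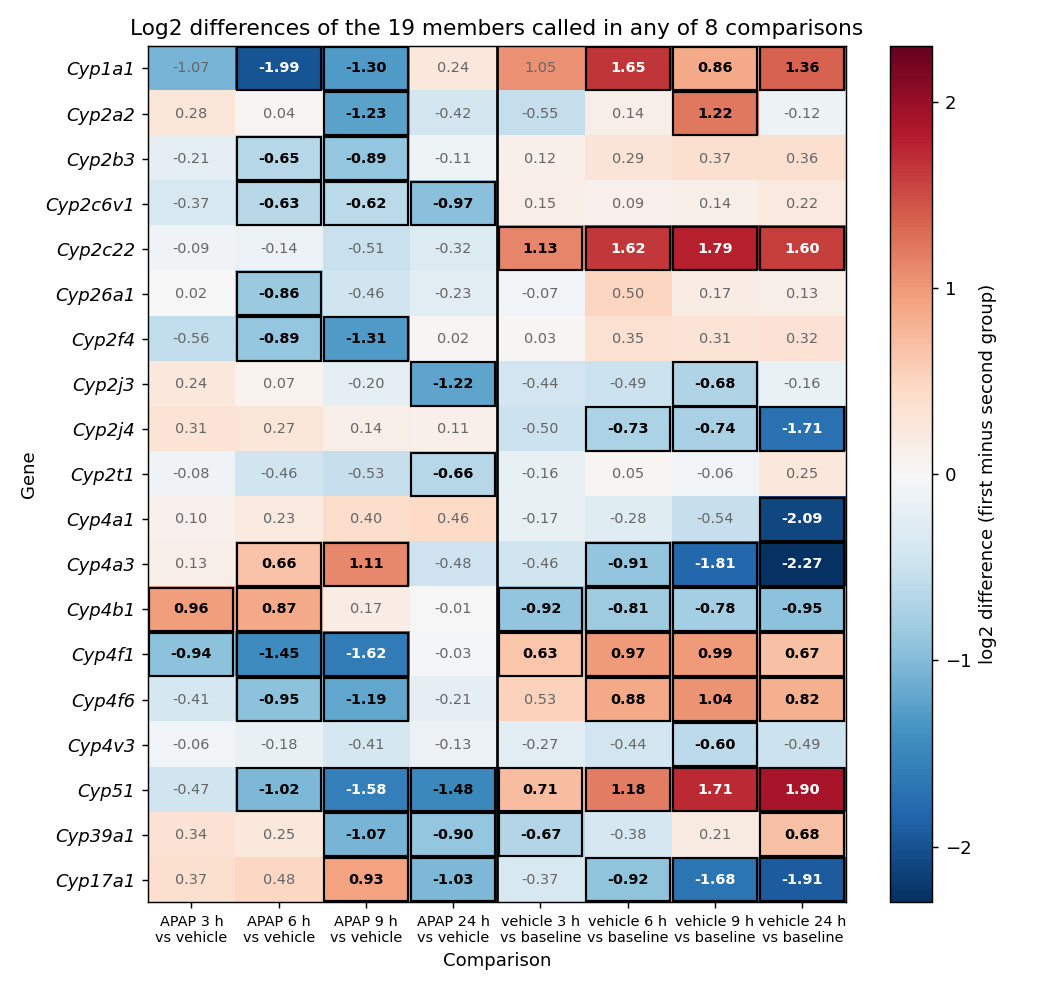
Log2 differences of the 19 genes called in any of 8 comparisons (rows), with APAP minus vehicle at 4 times on the left and vehicle minus baseline on the right (red higher, blue lower, boxes mark calls). Boxes on the left are mostly blue, and Cyp2c22, Cyp2j4, Cyp4a1 and Cyp4v3 have boxes on the right side only.

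The fatty acid hydroxylases of family 4 moved in both directions, with Cyp4f1 and Cyp4f6 lower and Cyp4a3 and Cyp4b1 higher with APAP at some of the times. These enzymes oxidise the far end of fatty acid chains. Cyp4a1 and Cyp4a3 are targets of the fatty acid receptor Ppara, Cyp4f enzymes oxidise leukotrienes and long-chain fatty acids, and Cyp4b1 oxidises fatty acids and foreign compounds. Of the 8 measured, 2, 4, 3 and 0 were called at 3, 6, 9 or 24 h after APAP, and 2, 4, 5 and 5 in the vehicle comparisons. Over all genes the shares were 6.32%, 14.1%, 17.1% and 3.40% for APAP and 3.55%, 5.02%, 6.40% and 6.55% for vehicle.

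Cyp4f1 fell with APAP at 3, 6 and 9 h and overlapped vehicle at 24 h. At 6 h its signal was 11.87, 12.18, 12.27, 12.26 and 11.95 in APAP livers, against 13.52, 13.57, 13.53, 13.60 and 13.55 in vehicle livers. At 9 h it was 12.00, 11.94, 11.97, 11.94 and 11.89 in APAP livers, against 13.48, 13.56, 13.53, 13.66 and 13.59 in vehicle livers. No APAP animal reached the lowest vehicle animal at 3, 6 or 9 h. The decrease was 1.92-fold at 3 h (log2 difference -0.94, SE 0.10, adjusted p = 3.07e-05), 2.73-fold at 6 h (log2 difference -1.45, SE 0.081, adjusted p = 5.24e-08) and 3.07-fold at 9 h (log2 difference -1.62, SE 0.050, adjusted p = 5.69e-10). At 24 h the groups overlapped, with 13.38, 13.08, 13.09, 13.24 and 13.30 in APAP livers and 13.46, 13.04, 13.27, 13.24 and 13.26 in vehicle livers (log2 difference -0.03, 95% interval -0.22 to 0.15). Vehicle livers were themselves above the baseline livers (12.58, 12.68, 12.46, 12.78 and 12.40) at every time, by 0.63, 0.97, 0.99 and 0.67 on the log2 scale (adjusted p = 0.000158, 1.49e-06, 1.48e-06 and 0.000141). All APAP livers at 6 and 9 h were also below all baseline livers, and that difference was called at 9 h and not at 6 h. The 3 h vehicle call was lost without vehicle replicate 5 (log2 difference 0.58).

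Cyp4f6, the neighbour of Cyp4f1 in the RefSeq order of chromosome 7, moved in the same directions. At 9 h its signal was 11.04, 10.79, 10.99, 10.45 and 10.67 in APAP livers, against 11.74, 11.97, 11.97, 12.35 and 11.87 in vehicle livers, with no overlap (log2 difference -1.19, SE 0.13, adjusted p = 1.23e-05). At 6 h the range was 10.49 to 11.12 in APAP livers and 11.64 to 11.97 in vehicle livers (log2 difference -0.95, SE 0.11, adjusted p = 1.38e-05). The differences of -0.41 at 3 h and -0.21 at 24 h were not called. Against baseline livers (11.27, 11.04, 10.77, 11.03 and 10.58), vehicle livers were higher at 6, 9 and 24 h by 0.88, 1.04 and 0.82. The mean of APAP livers at 6 and 9 h (10.87 and 10.79) lay just below the baseline mean of 10.94. The other Cyp4f gene measured, Cyp4f4, ran the other way after vehicle, with differences from baseline of -0.48, -0.51, -0.58 and -0.39. None of these reached 1.5-fold, although adjusted p was 0.0019 at 9 h, and the 9 h value passed 1.5-fold when any of 6 single animals was left out (largest log2 difference -0.64, without baseline replicate 3).

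Cyp4a3 was higher with APAP at 6 and 9 h, over a vehicle level that declined with time. Vehicle livers were below baseline livers (14.25, 13.93, 13.89, 13.80 and 14.15) at 6, 9 and 24 h (log2 differences -0.91, -1.81 and -2.27), the last a 4.84-fold decrease (adjusted p = 3.4e-08). At 6 h the signal was 13.51, 13.88, 14.00, 13.89 and 13.48 in APAP livers, against 13.56, 12.97, 13.15, 12.77 and 13.01 in vehicle livers, where 1 vehicle animal lay within the APAP range (log2 difference 0.66, SE 0.14, adjusted p = 0.00237). Without vehicle replicate 4 the 6 h difference was 0.58, just under 1.5-fold. At 9 h it was 13.65, 13.30, 12.85, 13.79 and 12.94 in APAP livers, against 12.35, 12.16, 12.01, 12.21 and 12.25 in vehicle livers, with no overlap (log2 difference 1.11, SE 0.17, adjusted p = 0.000153). At 24 h the sign had turned (log2 difference -0.48, SE 0.13, adjusted p = 0.0344), and this was not called because it was under 1.5-fold, with a difference of -0.59 that passed when APAP replicate 1 was left out. The change in the APAP effect between 9 and 24 h was itself called (log2 difference -1.59, SE 0.22, adjusted p = 1.38e-05).

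Cyp4a1, on chromosome 5 like Cyp4a3, was not called with APAP. At 9 h its signal was 13.46, 13.53, 13.46, 13.64 and 13.65 in APAP livers, against 13.05, 13.05, 13.16, 13.23 and 13.26 in vehicle livers, all APAP animals above all vehicle animals, by 1.32-fold (log2 difference 0.40, SE 0.064, adjusted p = 0.000281). With cyclic loess the 9 h difference was 0.60 (adjusted p = 2.45e-05), which passed 1.5-fold. Its drop came late in vehicle animals, with 11.89, 11.67, 11.41, 11.67 and 11.35 in vehicle livers at 24 h, against 13.62, 13.62, 13.71, 13.65 and 13.83 in baseline livers (log2 difference -2.09, SE 0.095, adjusted p = 3.4e-08). At 24 h APAP livers ranged from 11.50 to 12.58, overlapping vehicle (log2 difference 0.46, 95% interval 0.07 to 0.85), and without APAP replicate 1 the difference was 0.60 (adjusted p = 0.0267). Baseline signals of Cyp4a1 and Cyp4a3 reached 13.83 and 14.25, near the top of the range, where differences may be understated.

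Cyp4b1 was the only one of the 43 genes that was called higher at 3 h. Its signal was 9.28, 9.33, 9.66, 9.37 and 9.40 in APAP livers, against 8.39, 8.50, 8.87, 8.20 and 8.26 in vehicle livers, and the groups did not overlap (log2 difference 0.96, SE 0.12, adjusted p = 8.39e-05). At 6 h it was 9.31, 9.45, 9.47, 9.57 and 9.28 in APAP livers, against 8.58, 8.51, 8.58, 8.53 and 8.54 in vehicle livers (log2 difference 0.87, SE 0.061, adjusted p = 3.76e-07). At those times the APAP livers stood beside the baseline livers, whose values were 9.22, 9.30, 9.39, 9.45 and 9.44. Vehicle livers were below baseline at every time (log2 differences -0.92, -0.81, -0.78 and -0.95). At 9 and 24 h APAP and vehicle livers overlapped (differences 0.17 and -0.01), and the change between 6 and 9 h was called (log2 difference -0.69, SE 0.12, adjusted p = 0.00135).

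**Figure D3:**
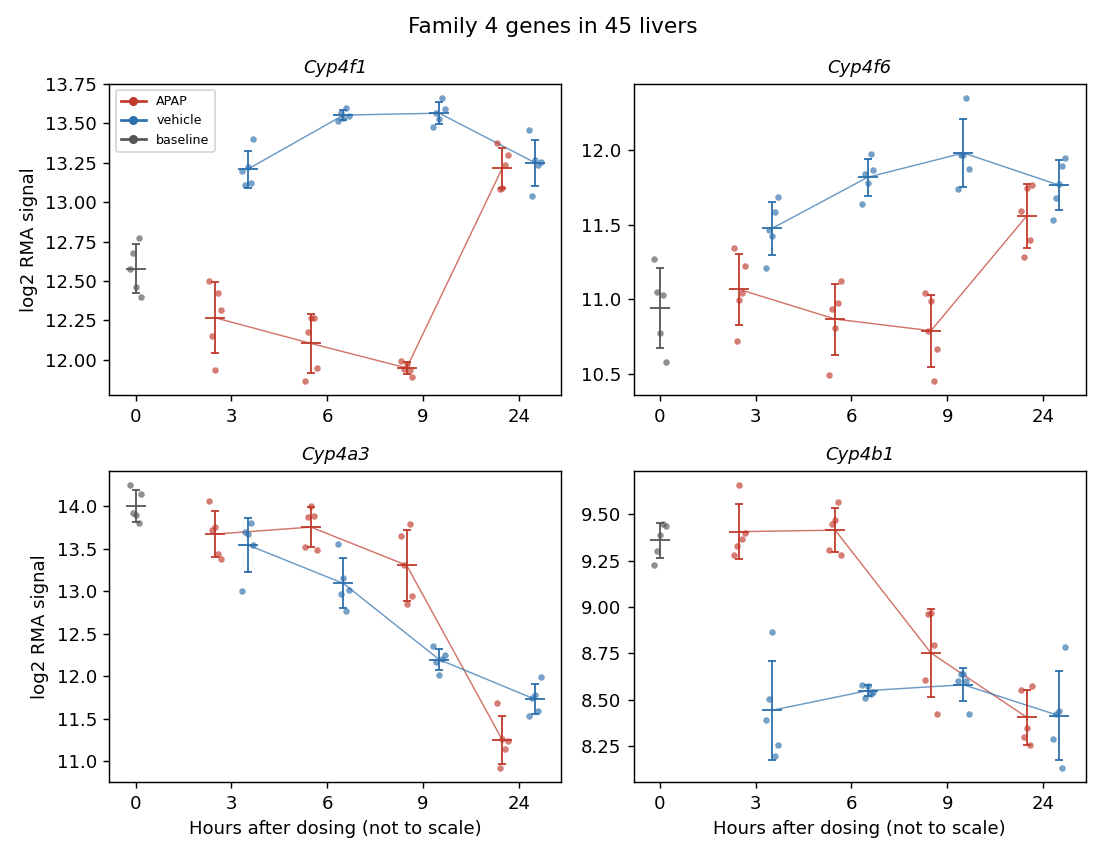
Log2 RMA signal (vertical axes) of Cyp4f1, Cyp4f6, Cyp4a3 and Cyp4b1 by hours after dosing, with each animal as a point and mean ± SD as bars for APAP (red), vehicle (blue) and baseline (grey), n = 5. Cyp4f1 and Cyp4f6 are lower and Cyp4a3 higher in APAP than in vehicle livers at 9 h, and Cyp4b1 is higher at 3 and 6 h.

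The 2 remaining members of the family moved less. Cyp4v3, the rat counterpart of a human fatty acid hydroxylase, was called once, lower in vehicle 9 h than in baseline livers (log2 difference -0.60, SE 0.083, adjusted p = 0.000182), and this passed 1.5-fold in 6 of 10 fits with 1 animal left out. Its APAP difference at 9 h was -0.41 (adjusted p = 0.00218), under 1.5-fold. Cyp4a8, among the dimmest 25% of genes, was not called, with differences from baseline in vehicle livers of -0.49 at 9 h and -0.48 at 24 h that passed when baseline replicate 1 was left out (-0.60 and -0.59), the 24 h value also without vehicle replicate 1 (-0.61).

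Ppara targets that are not P450 genes are given as measured context for Cyp4a. Of 17 measured, 6, 7 and 8 were higher and 0 lower with APAP at 3, 6 and 9 h, and 0 were higher and 4 lower at 24 h. Of all genes 3.34%, 7.06% and 8.65% were higher at 3, 6 and 9 h and 1.84% lower at 24 h. In vehicle livers 4, 11, 12 and 13 were below baseline at 3, 6, 9 and 24 h and 0 above, against 1.85%, 2.33%, 2.92% and 2.93% of all genes below. Cpt1a, which admits fatty acids to mitochondria, differed with APAP by 1.03, 2.59 and 3.07 at 3, 6 and 9 h (all called) and by -0.50 at 24 h (not called).

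Of the 3 sterol enzymes, Cyp51 had the most calls. Cyp51, the lanosterol demethylase of cholesterol synthesis, stayed near baseline in APAP animals and climbed with time in vehicle animals. At 6 h its signal was 9.83, 10.24, 9.75, 9.81 and 9.95 in APAP livers, against 11.27, 10.56, 10.87, 11.22 and 10.78 in vehicle livers. At 9 h it was 10.22, 9.48, 9.47, 10.02 and 10.29 in APAP livers, against 11.64, 11.31, 11.64, 11.12 and 11.63 in vehicle livers. At 24 h it was 10.42, 10.02, 10.69, 9.77 and 10.03 in APAP livers, against 11.80, 11.66, 11.55, 11.76 and 11.53 in vehicle livers. The groups did not overlap at 6, 9 or 24 h. The differences were -1.02 at 6 h (adjusted p = 5.99e-05), -1.58 at 9 h (adjusted p = 1.61e-05) and -1.48 at 24 h (adjusted p = 9.65e-05), each 2.03-fold or more. At 3 h the difference of -0.47 was under 1.5-fold (adjusted p = 0.0489).

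Against baseline livers (10.36, 9.57, 9.80, 9.72 and 9.37), vehicle livers were higher in Cyp51 by 0.71, 1.18, 1.71 and 1.90, the last 3.73-fold. Set against baseline in place of vehicle, APAP livers differed by 0.16, 0.13 and 0.42 at 6, 9 and 24 h, with adjusted p of 0.478, 0.64 and 0.137. Of 14 other genes of cholesterol synthesis and uptake, 0, 1, 1 and 0 were higher and 6, 10, 8 and 10 lower with APAP at 3, 6, 9 and 24 h, against 2.98%, 7.04%, 8.47% and 1.84% of all genes lower. In vehicle livers 9, 10, 11 and 13 of them were above baseline and 0 below, against 1.70%, 2.70%, 3.48% and 3.62% of all genes above. Fdft1, the squalene synthase, differed with APAP by -1.09, -1.59, -2.12 and -0.97, all called.

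Cyp39a1, a liver oxysterol hydroxylase of bile acid synthesis, was lower with APAP at 9 and 24 h. At 9 h its signal was 7.51, 8.81, 7.79, 8.12 and 7.37 in APAP livers, against 8.86, 9.30, 8.98, 9.31 and 8.49 in vehicle livers, where 1 APAP animal lay among the vehicle animals (log2 difference -1.07, SE 0.25, adjusted p = 0.00402). At 24 h it was 8.70, 8.33, 8.87, 8.37 and 8.52 in APAP livers, against 9.91, 9.48, 10.05, 8.88 and 8.96 in vehicle livers, without overlap by a narrow margin (log2 difference -0.90, SE 0.22, adjusted p = 0.0204). Without APAP replicate 4 the call was lost (log2 difference -0.85, adjusted p = 0.0547). At 3 and 6 h it was not called (0.34 and 0.25), and the change between 6 and 9 h was called (log2 difference -1.31, SE 0.30, adjusted p = 0.00905) but lost without replicate 3 or 4 of the 4 groups (largest adjusted p = 0.0529). Vehicle livers were below baseline at 3 h (-0.67) and above it at 24 h (0.68, adjusted p = 0.047), a call kept in only 3 of 10 fits with 1 animal left out. Cyp46a1, a cholesterol hydroxylase best known in brain, stayed within 0.0825 in all 8 comparisons.

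Cyp1a1, which oxidises polycyclic aromatics and is induced through the aryl hydrocarbon receptor, was lower with APAP at 6 and 9 h and varied widely between vehicle animals. At 6 h its signal was 7.35, 7.45, 7.38, 7.49 and 7.61 in APAP livers, against 10.05, 7.98, 10.16, 9.75 and 9.30 in vehicle livers. At 9 h it was 7.46, 7.47, 7.11, 7.10 and 7.64 in APAP livers, against 9.63, 8.73, 8.50, 7.81 and 8.62 in vehicle livers. The APAP animals were close together and below every vehicle animal, while vehicle animals were widely spread. The decrease was 3.98-fold at 6 h (log2 difference -1.99, SE 0.33, adjusted p = 0.000289) and 2.47-fold at 9 h (log2 difference -1.30, SE 0.26, adjusted p = 0.00132). At 3 h the groups overlapped (log2 difference -1.07, SE 0.39, adjusted p = 0.0591), and without vehicle replicate 5 the call was reached (-1.31, adjusted p = 0.0238), as it was without vehicle replicate 4 (-1.23, adjusted p = 0.0434). At 24 h APAP livers had 10.34, 8.57, 10.33, 8.33 and 9.41, spread as widely as vehicle livers with 8.87, 9.90, 7.81, 9.08 and 10.13 (log2 difference 0.24, 95% interval -0.83 to 1.31).

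Baseline livers were low in Cyp1a1, with 7.56, 7.58, 7.45, 8.11 and 8.28, and vehicle livers were higher at 6, 9 and 24 h by 1.65, 0.86 and 1.36. The 9 h vehicle call was lost in 6 of 10 fits with 1 animal left out. Of 4 other targets of the receptor, 0 were called lower with APAP at 3, 6 and 9 h, against 2.98%, 7.04% and 8.47% of all genes, and 1, 2 and 1 were higher, against 3.34%, 7.06% and 8.65%. At each of these times 1 of the 4 had a negative difference. Tiparp was higher by 1.16, 1.32 and 1.54 at 3, 6 and 9 h and differed by -0.59 at 24 h (called lower), and Nqo1, which also responds to oxidants, was higher at 6 and 24 h by 1.61 and 2.74. The receptor itself, Ahr, was higher with APAP at 3 and 6 h (0.74 and 0.59).

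Among the 9 drug oxidases of the Cyp2a, Cyp2b and Cyp3a subfamilies, most of them oxidising foreign compounds or testosterone, APAP lowered 1 gene at 6 h and 2 at 9 h, and raised 0. In either direction that is 11.1% and 22.2%, near the 14.1% and 17.1% of all genes called at these times (7.04% and 8.47% lower). Cyp2b3, a rat liver gene of the Cyp2b family, was 12.76, 12.61, 12.79, 12.89 and 13.01 in APAP livers at 9 h, against 13.69, 13.67, 13.70, 13.77 and 13.66 in vehicle livers (log2 difference -0.89, SE 0.071, adjusted p = 9.91e-07). At 6 h it was 12.70, 13.12, 13.07, 13.04 and 12.94 in APAP livers, against 13.64, 13.64, 13.66, 13.54 and 13.62 in vehicle livers (log2 difference -0.65, SE 0.076, adjusted p = 2.18e-05). The groups were apart at both times, and at 24 h they overlapped (difference -0.11). The 6 h value was under 1.5-fold without APAP replicate 1 (-0.58) and with cyclic loess normalization (-0.46).

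Cyp3a2, the male-dominant Cyp3a enzyme of rat liver and the brightest of this group at baseline, was lower with APAP at each time by less than 1.5-fold (log2 differences -0.26, -0.34, -0.38 and -0.52). At 24 h its signal was 13.39, 13.54, 13.20, 13.55 and 13.17 in APAP livers, against 13.97, 13.75, 13.91, 13.83 and 13.98 in vehicle livers, all APAP animals lower (adjusted p = 0.0027). Cyp2a1, Cyp2a3, Cyp2b12, Cyp2b21, Cyp3a18 and Cyp3a9 were not called, with largest differences in the 8 comparisons of 0.233, 0.189, 0.0567, 0.129, 0.428 and 0.477. Cyp2a3, Cyp2b12 and Cyp2b21 were among the dimmest 25% of genes, where a decrease may be compressed.

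Cyp2a2, a testosterone hydroxylase of adult male rat liver, varied between animals more than any other of these genes. It had the widest SD of the 43 in 6 of the 9 groups. In vehicle 24 h livers its signal was 12.29, 6.83, 12.57, 12.04 and 11.78, so that replicate 2 lay far below the other 4. Vehicle 3 h livers had 11.58, 11.20, 11.33, 8.31 and 10.98, vehicle 6 h livers 11.73, 9.34, 12.50, 11.18 and 12.06, and baseline livers 12.07, 11.89, 11.42, 11.24 and 9.50, each with 1 animal well below the rest. At 9 h no animal stood apart, with 11.66, 11.18, 11.25, 10.91 and 11.09 in APAP livers and 12.82, 12.13, 12.61, 12.24 and 12.42 in vehicle livers, and all APAP animals were lower (log2 difference -1.23, SE 0.15, adjusted p = 3.34e-05). A fit of all 45 arrays, which takes in the spread of the other groups, gave that same difference an adjusted p of 0.137.

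At 24 h APAP livers had Cyp2a2 signals of 11.09, 10.09, 10.27, 10.62 and 11.34, and the difference from vehicle was -0.42 (adjusted p = 0.864). Without vehicle replicate 2 it was -1.49 (adjusted p = 0.00405), all remaining vehicle animals being above the APAP animals. Against baseline, the vehicle 9 h livers were higher (log2 difference 1.22, SE 0.39, adjusted p = 0.0323), a call that was lost in 4 of 10 fits with 1 animal left out. By Dixon's test for a single distant value, run on 24 of the 43 genes, the same animal also stood apart in Cyp2d2, at 13.81 against 13.97 to 14.01 in the rest of its group. The same animal was far lower in Cyp2c13, another male-specific gene, at 12.14 against 13.84 to 14.05 in the rest of its group. Cyp2c13 was not among the 24 and was chosen after its values were seen. In the male-dominant Cyp3a2 that animal was the lowest by little, at 13.75 against 13.83 to 13.98. Vehicle 3 h replicate 4 and vehicle 6 h replicate 2, the lowest of their groups in Cyp2a2 (8.31 and 9.34), were also the lowest in Cyp2c13 (13.18 and 12.76, the others 13.63 to 13.83 and 13.77 to 13.95). Set against baseline in place of vehicle, the APAP 9 h livers differed in Cyp2a2 by -0.0057 (adjusted p = 0.992).

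**Figure D4:**
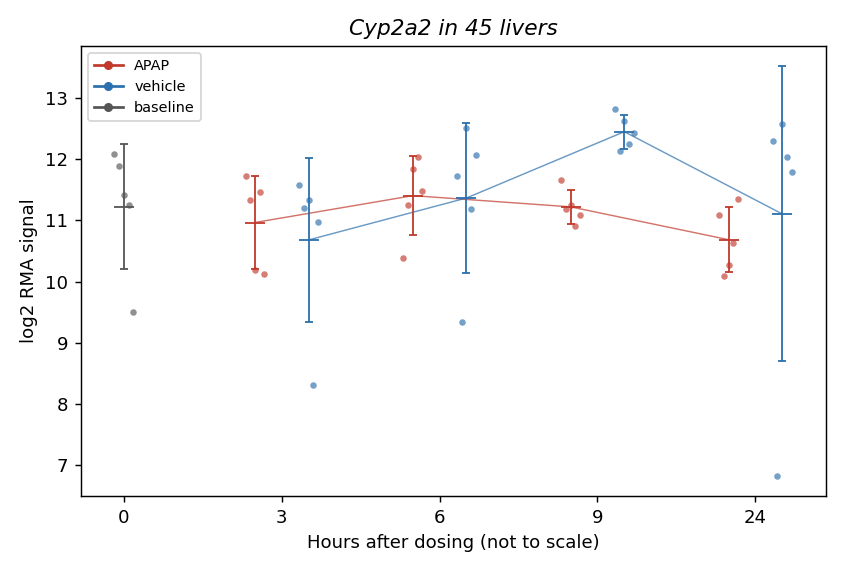
Log2 RMA signal of Cyp2a2 (vertical axis) in each of 45 livers by hours after dosing, for APAP (red), vehicle (blue) and baseline (grey), with mean ± SD, n = 5. Single animals lie far below their group at 0 h and in vehicle livers at 3, 6 and 24 h, down to 6.83.

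Of the 7 Cyp2c and Cyp2d genes, 1 was lowered by APAP at each of 6, 9 and 24 h, and it was the same gene, Cyp2c6v1, a constitutive Cyp2c enzyme of rat liver. Over all genes 7.04%, 8.47% and 1.84% were lower at these times. At 6 h its signal ranged over 12.44 to 12.90 in APAP livers and 13.22 to 13.48 in vehicle livers (log2 difference -0.63, SE 0.093, adjusted p = 0.000127), and at 9 h over 12.36 to 12.97 in APAP livers and 13.24 to 13.57 in vehicle livers (log2 difference -0.62, SE 0.11, adjusted p = 0.000609). At 24 h it was 12.70, 12.16, 12.37, 12.48 and 12.66 in APAP livers, against 13.33, 13.60, 13.40, 13.33 and 13.57 in vehicle livers, with all APAP animals lower (log2 difference -0.97, SE 0.10, adjusted p = 0.000144). The 6 and 9 h values lie near the 1.5-fold limit: each fell below it with cyclic loess (-0.45 and -0.43), at 6 h without APAP replicate 5 (-0.57), and at 9 h without APAP replicate 4 or vehicle replicate 2 (as low as -0.53). Vehicle livers differed from baseline by 0.22 or less.

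Cyp2c22, a rat liver enzyme that oxidises retinoic acid, rose in vehicle animals and was not called with APAP. Vehicle 9 h livers had 13.75, 13.84, 13.79, 13.78 and 13.86, against 12.26, 11.98, 12.19, 12.02 and 11.59 in baseline livers, and all vehicle animals of all 4 times were above all baseline animals. The increases were 2.18-fold, 3.08-fold, 3.47-fold and 3.03-fold at 3, 6, 9 and 24 h (adjusted p = 0.000162, 8.01e-06, 2.48e-07 and 1.97e-06). APAP livers had means of 13.05, 13.49, 13.30 and 13.29, against 13.13, 13.63, 13.80 and 13.61 in vehicle livers. The largest difference between them, -0.51 at 9 h, separated all animals but was under 1.5-fold (adjusted p = 5.48e-05).

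Cyp2c13, a male-specific enzyme of rat liver, differed with APAP by -0.57 at 9 h (adjusted p = 7.74e-05), and passed 1.5-fold when any of APAP replicates 1, 3 and 4 was left out (to -0.59). In vehicle livers at 3, 6 and 24 h its lowest animal was the one lowest in Cyp2a2. Cyp2c23, an arachidonic acid epoxygenase, was below baseline in vehicle livers (log2 differences -0.52, -0.51, -0.51 and -0.35 at 3, 6, 9 and 24 h), each under 1.5-fold with adjusted p under 0.05. Cyp2d2, the debrisoquine hydroxylase and the brightest of this group at baseline, stayed within 0.219 in all 8 comparisons. Cyp2d3 and Cyp2d4 were not called in them (largest differences 0.389 and 0.506), but the APAP effect on Cyp2d4 changed between 9 and 24 h (log2 difference 0.60, SE 0.13, adjusted p = 0.000875). That change was 0.44 with cyclic loess, and it was lost without replicate 1 or 2 of the 4 groups.

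Of the other 7 Cyp2 genes, Cyp2f4 fell at 6 and 9 h and Cyp2j3 and Cyp2t1 at 24 h (1, 1 and 2 genes at 6, 9 and 24 h, against 7.04%, 8.47% and 1.84% of all genes lower). Cyp2f4 belongs to a family known, in mouse lung, for oxidising naphthalene. At 3 h all APAP animals were below all vehicle animals, but the log2 difference of -0.56 was just under 1.5-fold (adjusted p = 0.00168). It passed when APAP replicate 5, vehicle replicate 1 or vehicle replicate 5 was left out (-0.63, -0.59 and -0.61). At 6 h its signal was 9.41 in 1 APAP liver and 9.87 to 10.02 in the other 4, against 10.82, 10.95, 10.48, 10.83 and 10.67 in vehicle livers (log2 difference -0.89, SE 0.12, adjusted p = 7.17e-05). At 9 h it was 9.45, 9.55, 9.51, 9.29 and 9.23 in APAP livers, against 10.66, 10.81, 10.76, 10.83 and 10.49 in vehicle livers (log2 difference -1.31, SE 0.084, adjusted p = 1.87e-07). At 24 h the groups overlapped, with means of 10.75 ± 0.19 in APAP and 10.73 ± 0.073 in vehicle livers (SD, n = 5 each). Unlike Cyp51, Cyp2f4 in APAP 9 h livers was also below baseline livers (10.36, 10.31, 10.54, 10.29 and 10.52), without overlap (log2 difference -1.0, adjusted p = 1.16e-06). Cyp4f1 and Cyp39a1 likewise kept a lower call at 9 h with baseline in place of vehicle.

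Cyp2j3 and Cyp2j4 belong to a family that oxidises arachidonic acid. Cyp2j3 was 8.17, 8.07, 7.99, 8.47 and 9.13 in APAP livers at 24 h, against 9.96, 9.28, 9.58, 10.03 and 9.05 in vehicle livers, where 1 APAP animal lay within the vehicle range (log2 difference -1.22, SE 0.24, adjusted p = 0.00575). At 3, 6 and 9 h it was not called (0.24, 0.07 and -0.20), and the change between 9 and 24 h was called (log2 difference -1.01, SE 0.30, adjusted p = 0.0136) but lost without replicate 1 or 4 of the 4 groups. Cyp2j4 was not called with APAP and fell in vehicle animals, which had 10.10, 9.99, 10.02, 10.29 and 10.59 at 24 h, against 11.82, 11.77, 11.88, 12.07 and 11.97 at baseline (log2 difference -1.71, SE 0.11, adjusted p = 4.59e-07). APAP 24 h livers had 10.22, 10.07, 10.19, 10.59 and 10.48, overlapping vehicle (log2 difference 0.11, 95% interval -0.17 to 0.40). The decreases of Cyp2j4 at 6 and 9 h in vehicle livers were -0.73 and -0.74, and Cyp2j3 was lower in vehicle than in baseline livers at 9 h (-0.68), a call lost without vehicle replicate 4 or baseline replicate 1.

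Cyp2t1 was 8.28, 8.82, 8.50, 8.51 and 8.53 in APAP livers at 24 h, against 9.32, 8.77, 9.11, 9.57 and 9.17 in vehicle livers (log2 difference -0.66, SE 0.14, adjusted p = 0.00873), with a small overlap. Without vehicle replicate 4 it was under 1.5-fold (-0.57). Its differences at 6 and 9 h, -0.46 and -0.53, separated all animals but were under 1.5-fold. Cyp2j10, Cyp2s1 and Cyp2u1 were not called in any of the 8 comparisons, with largest differences of 0.401, 0.203 and 0.359.

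**Figure D5:**
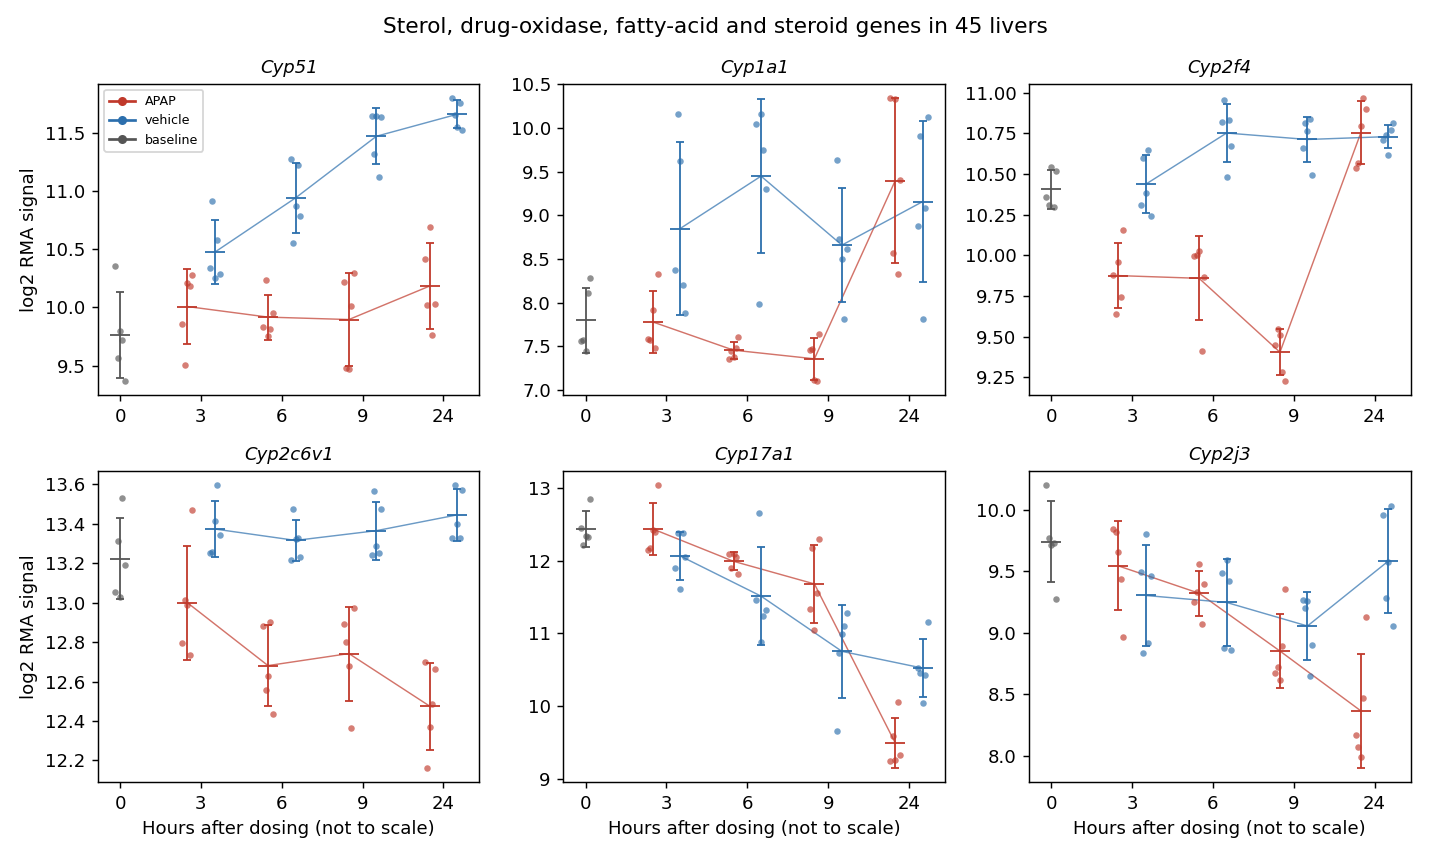
Log2 RMA signal (vertical axes) of Cyp51, Cyp1a1, Cyp2f4, Cyp2c6v1, Cyp17a1 and Cyp2j3 by hours after dosing, with each animal as a point and mean ± SD as bars for APAP (red), vehicle (blue) and baseline (grey), n = 5. Cyp51 is apart at 6, 9 and 24 h, Cyp2f4 and Cyp1a1 meet vehicle again at 24 h, and Cyp2c6v1 is lower at 6, 9 and 24 h.

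Cyp17a1, the steroid hydroxylase and lyase of androgen synthesis, was higher with APAP at 9 h and lower at 24 h. Its signal fell in vehicle animals, with 10.52, 10.46, 10.05, 10.43 and 11.16 at 24 h, against 12.45, 12.22, 12.34, 12.33 and 12.85 in baseline livers (log2 difference -1.91, SE 0.18, adjusted p = 9.65e-06). At 9 h APAP livers had 11.33, 12.18, 11.05, 11.55 and 12.30, against 9.66, 10.73, 10.99, 11.10 and 11.29 in vehicle livers (log2 difference 0.93, SE 0.31, adjusted p = 0.0288). The groups overlapped, and the call was lost without APAP replicate 2, APAP replicate 5 or vehicle replicate 2 (differences from 0.66 to 1.09 over the 10 fits). At 24 h APAP livers had 9.24, 9.58, 9.25, 10.06 and 9.32, against 10.52, 10.46, 10.05, 10.43 and 11.16 in vehicle livers (log2 difference -1.03, SE 0.20, adjusted p = 0.00574), with 1 APAP animal level with the lowest vehicle animal. The change in the APAP effect between 9 and 24 h was 3.89-fold (log2 difference -1.96, SE 0.40, adjusted p = 0.000668). At 6 h vehicle replicate 2 (12.66) stood above the other vehicle animals, and the APAP difference of 0.48 (adjusted p = 0.152) was 0.77 without it (adjusted p = 0.00018). The vehicle call at 6 h (-0.92) was lost in 4 of 10 fits with 1 animal left out.

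The other steroid hormone genes are adrenal, gonadal or placental enzymes. Cyp11a1, Cyp19a1 and Cyp21a1 lay below the median signal and stayed within 0.188 in all 8 comparisons. Cyp20a1, whose substrate is unknown, was not called, with differences with APAP of 0.33, 0.19, 0.32 and 0.35.

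Among the vitamin enzymes, Cyp26a1, which degrades retinoic acid and is itself induced by it, was lower with APAP at 6 h. Its signal was 4.38, 4.59, 4.57, 4.97 and 4.72 in APAP livers, against 5.51, 5.36, 5.51, 5.64 and 5.48 in vehicle livers, without overlap (log2 difference -0.86, SE 0.097, adjusted p = 1.52e-05). Vehicle livers at 6 h were above baseline livers (4.80, 5.18, 5.13, 4.97 and 4.93) by 0.50, under 1.5-fold. The gene is among the dimmest 25%, where background compresses differences. The change in the APAP effect between 3 and 6 h was called (log2 difference -0.87, SE 0.16, adjusted p = 0.000534), and at 9 h the groups were still apart (log2 difference -0.46, adjusted p = 0.00159). Rarb, a retinoic acid receptor gene induced by retinoids, differed with APAP by -0.38, -1.13, -1.67 and -0.74 at 3, 6, 9 and 24 h, the last 3 called. Cyp26b1, a related enzyme, and Cyp27b1, which activates vitamin D, were not called, with largest differences of 0.191 and 0.103.

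Interaction terms tested whether the effect of APAP changed from each time to the next. Between 3 and 6 h 1 of the 43 genes was called, against 6.90% of all genes (0 toward higher and 1 toward lower, against 4.18% and 2.72%), and 2 to 4 were called without replicate 1, 2, 3 or 5 of the 4 groups, the most without replicate 2. Between 6 and 9 h 2 were called, against 3.13% of all genes (0 toward higher and 2 toward lower, against 1.66% and 1.46%), and 1 without replicate 3 or 4. Between 9 and 24 h 8 were called, against 16.4% of all genes (5 toward higher and 3 toward lower, against 8.40% and 8.03%). With cyclic loess the balance turned, with 3 toward higher and 4 toward lower, since Cyp2b3 (0.55) and Cyp2d4 (0.44) fell under 1.5-fold and Cyp2d3 (-0.67, adjusted p = 0.00104) passed. Toward higher were Cyp4f1 (1.58), Cyp2f4 (1.33), Cyp4f6 (0.99), Cyp2b3 (0.78) and Cyp2d4 (0.60). The first 4 of these are genes called lower at 9 h and not at 24 h. Toward lower were Cyp17a1 (-1.96), Cyp4a3 (-1.59) and Cyp2j3 (-1.01). The change in Cyp1a1 just missed the threshold (log2 difference 1.54, adjusted p = 0.0561). It passed with 1 fit of all arrays (adjusted p = 0.0347), without the 25% dimmest genes (0.0441), with the replicate number as a block (0.0491), and without replicate 2 or 4 of the 4 groups (0.0418 and 0.0366). For Cyp51 and Cyp2c6v1, lowered at both times, the change was not called, with log2 difference 0.10, 95% interval -0.42 to 0.62 and log2 difference -0.35, 95% interval -0.68 to -0.01.

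The partners that P450 enzymes need were measured on the same arrays. Por was higher with APAP by 1.21, 2.0 and 2.51 at 3, 6 and 9 h and differed by -0.36 at 24 h (not called), while vehicle livers were below baseline at 3, 6, 9 and 24 h (-0.86, -1.86, -2.40 and -1.30). Of 10 genes of heme synthesis and breakdown, 1, 4, 4 and 0 were lower and 1, 1, 1 and 0 higher with APAP at 3, 6, 9 and 24 h, against 2.98%, 7.04%, 8.47% and 1.84% of all genes lower and 3.34%, 7.06%, 8.65% and 1.56% higher. Those lower included Alad (-0.80, -1.44 and -1.77 at 3, 6 and 9 h), the second enzyme of heme synthesis, whereas Alas1, the rate-limiting first one, was not called with APAP (-0.01, -0.25, 0.06 and 0.16). Hmox1, which breaks heme down, was higher by 2.73, 4.17 and 4.17 at 3, 6 and 9 h and differed by 0.21 at 24 h. Cyb5r3, which passes electrons to cytochrome b5, was lower at 6 and 9 h (-1.05 and -1.06).

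Of 19 regulators of P450 genes, 5, 3, 1 and 0 were higher and 4, 4, 5 and 1 lower with APAP at 3, 6, 9 and 24 h. For these regulators and the lists that follow, the shares of all genes at the same times were 3.34%, 7.06%, 8.65% and 1.56% higher and 2.98%, 7.04%, 8.47% and 1.84% lower. Nr1i2, the receptor PXR, was higher at 3 and 6 h (0.90 and 0.92), and Nr1i3, the receptor CAR, was not called with APAP (0.49, 0.09, 0.28 and 0.30). Ppara was higher at 3 h (0.93) and lower at 9 h (-0.73). Of 9 other targets of CAR and PXR, 2, 2, 3 and 3 were higher and 1, 1, 1 and 0 lower. Of 4 other male-dominant liver genes 1, 2, 3 and 1 were lower and 0 higher. Among 8 pericentral genes 2, 2, 1 and 4 were lower with APAP and 0 higher, and among 10 periportal genes 3, 3, 2 and 1 were lower and 2, 2, 1 and 0 higher. The part that these genes or zones have in the P450 values was not tested. Of the 7 P450 genes left out of this account, 1, 1, 2 and 2 were lower and 0 higher with APAP at 3, 6, 9 and 24 h.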

How the data were processed

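Rat liver RNA had been hybridised to Affymetrix Rat Genome arrays, 1 per animal, in 9 groups of 5. The authors deposited log2 intensities from RMA, computed with affy 1.64.0 in R 3.6.1 and BrainArray chip definitions version 19, which give 1 probe set per gene, and tested them with limma 3.42.2 as the study's methods state. RMA corrects background and makes the arrays' distributions alike, so a change shared by most genes is removed and differences are compressed near the floor and the ceiling. Gene symbols came from the deposited annotation sheet, joined on probe set, and all 43 genes matched RefSeq by Entrez number. That sheet also held 45 columns of values under animal codes not found in the labels, and these were not used. The sources used here do not give batch or scan order.

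Each comparison was fitted on only its own groups, with the default lmFit and eBayes of limma 3.58.1 under R 4.3.3, over all 13877 genes with no filter. P-values were adjusted by Benjamini-Hochberg, and a call needed an adjusted p under 0.05 and at least 1.5-fold. There were 11 comparisons: APAP against vehicle at 4 times, vehicle against baseline at 4 times, and the change of the APAP effect between neighbouring times. P-values set each difference against the spread between animals, which limma moderates over all genes, and 5 per group limits their precision.

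The named genes were those called in a comparison (at most 15 each way for APAP, 8 each way for vehicle and 6 each way for changes between times) and the gene with the highest baseline signal in each group by role. Other genes named were chosen after their values were seen. The genes, the role groups and the lists of other genes were chosen with earlier results of these data known. A gene of the cholesterol list is not reported here and was left out of its counts. On simulated data with the same 13877 genes and 11 comparisons, 34 to 45 of 50 genes changed 1.6-fold were recovered, 45 to 50 of those changed 2-fold, 48 to 50 at 3-fold and 49 to 50 at 5-fold, with at most 3 false calls. The simulated noise was normal, with the same spread in every group for a gene, and few genes changed. Unequal spreads, distant animals and changes as widespread as the real ones were not simulated. Alternatives were 1 fit of all 45 arrays, limma-trend, cyclic loess normalization, leaving out the 25% dimmest genes, an adjusted p under 0.01, no fold threshold, the replicate number as a block, leaving out each animal, and baseline in place of vehicle. Promoters came from a RefSeq table (GRCr8), which had 35 of the 43 genes among 33469 promoters.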

Additional observations from a re-analysis of the deposited data

Results flagged for a closer look

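In 24 genes and 9 groups, 216 sets of 5 animals were tested for a single distant animal by Dixon's test, which flags about 1 in 20 by chance, and 14 were flagged. In Cyp2a2, vehicle 24 h replicate 2 had 6.83 (the other 4 animals 11.78 to 12.57) and vehicle 3 h replicate 4 had 8.31 (others 10.98 to 11.58). In Cyp2d2, vehicle 24 h replicate 2 had 13.81 (others 13.97 to 14.01) and baseline replicate 3 had 13.79 (others 13.82 to 13.83). Low single animals were also Cyp4b1 in vehicle 9 h replicate 5 (8.42, others 8.60 to 8.64), Cyp2f4 in APAP 6 h replicate 4 (9.41, others 9.87 to 10.02), Cyp2j4 in APAP 9 h replicate 3 (10.88, others 11.30 to 11.44) and Cyp27b1 in APAP 9 h replicate 2 (7.17, others 7.36 to 7.40). The same held for Cyp26a1 in APAP 24 h replicate 3 (4.47, others 4.93 to 5.09), Cyp3a2 in APAP 9 h replicate 4 (13.37, others 13.71 to 13.81) and Cyp2b3 in APAP 3 h replicate 3 (13.03, others 13.24 to 13.32). High single animals were Cyp4a1 in vehicle 6 h replicate 2 (13.51, others 13.37 to 13.40), Cyp4v3 in APAP 6 h replicate 3 (11.48, others 11.19 to 11.27) and Cyp2t1 in baseline replicate 4 (9.27, others 8.83 to 8.92).

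The APAP effect differed between neighbouring times in 11 cases by the interaction test of limma. It moved lower between 3 and 6 h in Cyp26a1 (-0.87, adjusted p = 0.000534). It moved lower between 6 and 9 h in Cyp39a1 (-1.31, adjusted p = 0.00905) and Cyp4b1 (-0.69, adjusted p = 0.00135). Between 9 and 24 h it moved higher in Cyp4f1 (1.58, adjusted p = 3.25e-10), Cyp2f4 (1.33, adjusted p = 9.62e-08), Cyp4f6 (0.99, adjusted p = 0.000215), Cyp2b3 (0.78, adjusted p = 1.51e-06) and Cyp2d4 (0.60, adjusted p = 0.000875). Over the same interval it moved lower in Cyp17a1 (-1.96, adjusted p = 0.000668), Cyp4a3 (-1.59, adjusted p = 1.38e-05) and Cyp2j3 (-1.01, adjusted p = 0.0136).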

How the results depend on the processing

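Counts of P450 genes called stayed within 1.5 times the main count with 1 fit of all arrays, limma-trend, cyclic loess and an adjusted p under 0.01. Without a fold threshold 10, 17, 23 and 10 genes passed for APAP at 3, 6, 9 and 24 h, 11, 19, 22 and 17 for vehicle against baseline, and 5 for the change between 3 and 6 h. With the 25% dimmest genes left out, which removes Cyp26a1, that change had 0 calls. With baseline in place of vehicle, APAP gave 1, 3, 14 and 14 calls at 3, 6, 9 and 24 h, of which 0, 0, 5 and 3 were among the 2, 10, 11 and 6 called against vehicle. These shared counts ignore direction. The 5 at 9 h include Cyp4a3 and Cyp17a1, which were called higher against vehicle and lower against baseline. Of 29 single gene results 6 kept their call, 17 lost it and 6 changed sign: Cyp4a3 at 6 h (-0.25) and 9 h (-0.70), Cyp17a1 at 9 h (-0.75), and Cyp51 at 6 h (0.16), 9 h (0.13) and 24 h (0.42). This alternative uses animals killed before dosing, so it adds time, gavage and feeding together to the comparison. Leaving out 1 animal gave 2 to 4, 9 to 11, 9 to 12 and 5 to 8 calls for APAP at 3, 6, 9 and 24 h. It gave 5 to 6, 8 to 9, 10 to 13 and 10 to 11 for vehicle. For the changes between times 1 replicate number was left out of all 4 groups, 4 animals at once, which gave 1 to 4, 1 to 2 and 6 to 9 calls. Of 66 differences between groups in single genes, 52 kept their call whichever animal was left out and 14 lost it at least once, and of 11 changes between times 8 kept it and 3 lost it. Of all 77, 68 kept it with an adjusted p under 0.01, with cyclic loess 72, with 1 fit of all arrays 74, and with limma-trend all 77. Cyclic loess added Cyp4a1 for APAP at 9 h, Cyp4f4 for vehicle at 9 h and Cyp2d3 for the change between 9 and 24 h, where the calls were 3 higher and 4 lower. The all-gene median moved by less than 0.1 under cyclic loess, but this does not measure the shift of bright genes. Cyp4a1 for APAP at 9 h went from 0.40 to 0.60. Cyp2d3 for the change between 9 and 24 h went from -0.43 to -0.67, and Cyp4f4 for vehicle at 9 h from -0.58 to -0.62.

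Correlations between the deviations of same-numbered animals ran from -0.234 to 0.227, and in no comparison did all 5 pass 0.1. The numbers were not used as pairs in the main fits, and 5 animals per group are too few to exclude pairing. With the replicate number as a block the counts were 2, 10, 11 and 6 for APAP, 5, 9, 11 and 11 for vehicle, and 1, 2 and 9 for the changes. Cyp1a1 in vehicle at 9 h lost its call (adjusted p = 0.0587), the other 76 single gene results kept theirs, and Cyp1a1 was added for the change between 9 and 24 h (adjusted p = 0.0491). The 13 genes below the median signal lie where 5.65% (dimmest 25%) and 15.4% (from there to the median) of all genes were called in an APAP comparison, against 45.6% among the brightest 10%. Whether dim genes changed less or their differences were compressed cannot be told apart here.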
